A study of Mus musculus with 26 samples.

Results

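Mitotic genes encode the machinery that takes a replicated cell through chromosome condensation, spindle assembly, chromosome segregation and cytokinesis. A set of 37 such genes was followed through feeding of the liver toxin DDC, which obstructs small bile ducts and brings on a ductular reaction. The genes were chosen by name, and every non-control probe carrying one of these names was taken, which gave 62 probes of the 41174 on the array and all 37 genes of the 26650 that entered the fit. The rule itself uses no measured value. For each gene the brightest probe that passed the filter was used, and all 37 genes passed it with a probe that was well above background on at least 17 of 20 arrays.

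The mice carried Foxl1-Cre and the Cre reporter RosaYFP and were 6 to 10 weeks old, so that a cell in which the Foxl1 promoter had driven Cre, and its descendants, carried YFP. The control group, day 0, was the whole non-parenchymal fraction of livers from mice on chow, and 2 of its 4 samples were analysed. Animals on DDC gave 6 groups of sorted CD45-negative non-parenchymal cells. YFP-negative cells came from 3 of 4 samples at day 3, 3 of 4 at day 7 and 3 of 3 at day 14, and YFP-positive cells from 4 of 4, 3 of 4 and 2 of 3 samples at the same days. All 7 groups thus share the Cre and the reporter, and the other 6 samples of the 26 are not analysed here. The day 0 cells are not described as sorted or depleted of CD45-positive cells, so DDC and the sort cannot be told apart in any comparison with day 0. Nothing in the labels says that the samples of a group came from different animals, and p-values then measure the spread between these samples only.

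Cyclin B with its kinase drives entry into mitosis, Polo and Aurora kinases build the spindle, and the spindle assembly checkpoint holds the cell until every kinetochore is attached. The anaphase-promoting complex, with the activator Cdc20, then marks cyclin B and securin for destruction. Most of these genes are transcribed late in the cell cycle, and in resting adult liver few cells divide, whereas bile duct, stromal and endothelial cells are known to proliferate in DDC injury. In RNA from many cells, a larger share of dividing cells and more RNA per dividing cell cannot be told apart.

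Values are the log2 processed signal of a 1-colour Agilent array minus the 75th percentile of that array, called normalised log2 signal here, so a negative value means dimmer than that percentile. Levels of different genes are not compared, because each rests on its own probe. Differences are log2 differences between groups with their standard error from 1 limma fit over the 7 groups, and adjusted p-values cover 26650 genes. Between 81.0 and 91.2% of spots were well above background on each array. All 16 biliary and progenitor genes had a positive YFP-positive minus YFP-negative difference over the mean of days (52.9% of all genes did). Of these 16 genes, 3 were past the threshold (0.63% of all genes passed). Single arrays overlapped: the biliary mean, as deviation from each gene's mean over the 20 arrays, was -1.43 on YFP-positive day 3 array 3 and 0.70 on YFP-negative day 14 array 3. The 6 pan-leukocyte genes were well above background on nearly every array despite the CD45-negative sort, with 5 or 6 of 6 on each. Their mean deviation ran from -4.29 to 2.59 in YFP-positive cells at day 3 and from -2.84 to 0.10 at day 0.

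Against day 0, most mitotic genes had higher normalised log2 signal in each sorted group, and none passed the threshold of adjusted p under 0.05. In YFP-negative cells 33, 32 and 29 of 37 genes had a positive fitted difference at days 3, 7 and 14, where 33.2, 36 and 35.6% of all genes did. In YFP-positive cells 31, 30 and 30 did, where 41.6, 36.6 and 41.1% of all genes did. The median log2 difference of the 37 genes was 1.57, 1.33 and 0.87 in YFP-negative cells and 1.53, 2.02 and 1.47 in YFP-positive cells. The YFP-negative day 14 median was 0.23 without array 2 of that group and 1.38 without array 1. The median over all genes lay below 0 in the same comparisons, at -0.38, -0.34 and -0.39 and at -0.17, -0.34 and -0.23. These 6 comparisons share the same 2 day 0 arrays and so are not independent of each other.

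By limma 0 of 37 mitotic genes passed in each of the 6 comparisons, where 0.045, 0.0488 and 0.0338% of all genes passed in YFP-negative cells and 0.0525, 0.0338 and 0.146% in YFP-positive cells at days 3, 7 and 14. At an unadjusted p under 0.05, 15, 15 and 7 mitotic genes were higher in YFP-negative cells, where 1.91, 3.52 and 2.41% of all genes were. In YFP-positive cells 17, 21 and 9 were higher, where 3.6, 3.71 and 4.02% of all genes were. In either direction 16, 15 and 7 mitotic genes had such a p in YFP-negative cells (6.38, 8.58 and 11.5% of all genes) and 19, 22 and 10 in YFP-positive cells (10.2, 11.5 and 11.4% of all genes). Few were lower at that level: Pttg1 in YFP-negative cells at day 3, Pttg1 and Cenpa in YFP-positive cells at day 3, Pttg1 at day 7 and Cenpa at day 14. Over the mean of the 6 sorted groups, a comparison added after the values were seen, 31 of 37 genes were positive (33.6% of all genes), with a median of 1.36 against -0.34. In that comparison 16 were higher and 1 lower at an unadjusted p under 0.05 (3.36% of all genes were higher, and 10.2% in either direction), 0 passed (0.128% of all genes passed), and the lowest adjusted p was 0.0597 for Aurkb. With normexp background correction, quantile normalization and the array median as scale, the median of all genes was -0.08, -0.0026 and -0.03 in place of -0.34, and the mitotic median 1.27, 1.72 and 1.67. The day 0 signal of Aurkb was not well above background. With arrays weighted by their spread, 10 genes passed, where 3.16% of all genes did: Aurka, Aurkb, Birc5, Cdc20, Cdca8, Cenpf, Kif20a, Kif23, Top2a and Tpx2.

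**Figure D1:**
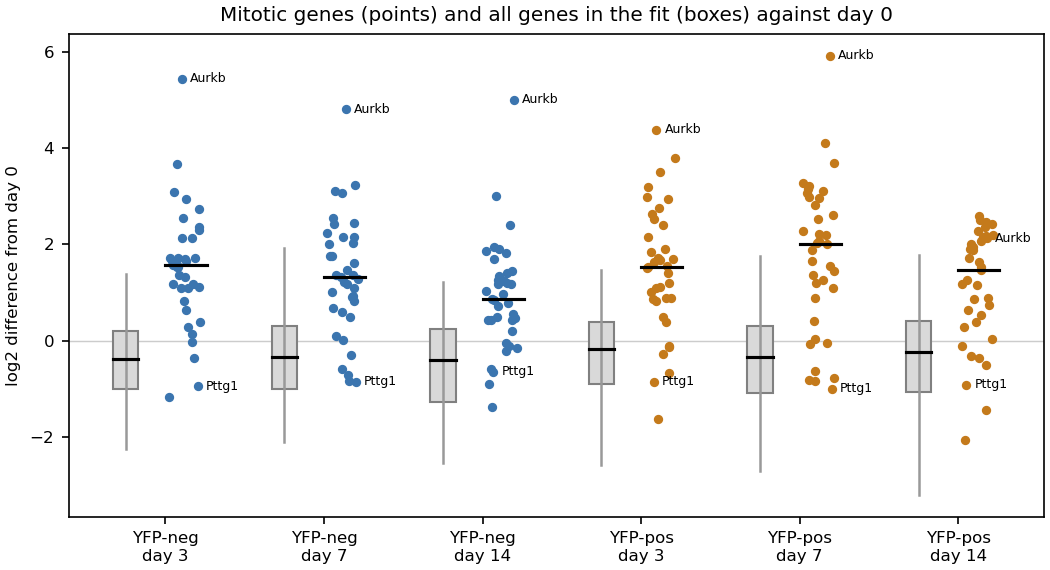
Fitted log2 difference from day 0 (vertical axis) of each of the 37 mitotic genes (points, horizontal line at their median) in the 6 sorted groups, beside all genes in the fit (grey box from the first to the third quartile, line at the median, whisker from the 5th to the 95th percentile). The mitotic medians lie between 0.87 and 2.02 and the medians of all genes between -0.39 and -0.17, with Pttg1 below 0 in each. The points of Aurkb rest on a day 0 signal that was not well above background.

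Both day 0 arrays lay below all 18 sorted arrays for 8 of 37 mitotic genes (21.6%), where this held for 1.87% of 26373 genes with a value on every array. These were Ccnb2, Birc5, Cdca8, Kif20a, Tpx2, Top2a, Ncapg and Cdc20. The reverse order held for Pttg1 alone, where it held for 1.93% of all genes. The count was 13 without day 0 array 1 and 12 without day 0 array 2, where the order held for 3.99% of all genes each time. With a day 0 array left out, the order is easier to meet.

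Top2a, the topoisomerase that untangles replicated chromosomes, read -2.14 and -1.03 in normalised log2 signal on the day 0 arrays. Top2a in YFP-negative cells read 0.37, 1.16 and 0.81 at day 3, 0.27, 1.63 and 0.64 at day 7 and 0.06, 1.35 and -0.71 at day 14. Top2a in YFP-positive cells read 1.51, 1.61, 0.79 and 1.72 at day 3, 2.35, -0.30 and 0.75 at day 7 and 0.38 and 1.01 at day 14. No sorted array reached down to either day 0 array, and the highest value was that of YFP-positive day 7 array 1. Against day 0, Top2a had fitted log2 differences of 2.37 ± 0.72, 2.43 ± 0.72 and 1.82 ± 0.72 in YFP-negative and 2.99 ± 0.69, 2.52 ± 0.72 and 2.28 ± 0.79 in YFP-positive cells at days 3, 7 and 14 (limma, adjusted p from 0.2 to 0.577). In YFP-positive cells at day 3 this was 7.96-fold. The probe lies at chr11:98857244-98858058 on the minus strand of mm9 and spans 815 bases of genome, so it crosses a splice junction.

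Mki67, the nuclear proliferation antigen Ki-67 that coats mitotic chromosomes, read 1.06 and 0.30 in normalised log2 signal on the day 0 arrays. Mki67 in YFP-negative cells read 1.33, 2.15 and 1.84 at day 3, 1.60, 2.55 and 1.74 at day 7 and 0.78, 3.15 and 1.04 at day 14. Mki67 in YFP-positive cells read 2.51, 2.56, 1.63 and 2.14 at day 3, 3.51, 1.76 and 2.81 at day 7 and 1.52 and 2.35 at day 14. The groups touched at day 14, where YFP-negative arrays 1 and 3 read below day 0 array 1. Against day 0, Mki67 had fitted log2 differences of 1.09 ± 0.67, 1.28 ± 0.67 and 0.98 ± 0.67 in YFP-negative and 1.53 ± 0.63, 2.02 ± 0.67 and 1.26 ± 0.73 in YFP-positive cells at days 3, 7 and 14 (limma, adjusted p from 0.279 to 0.764). Its probe lies at chr7:142881591-142881650 on the minus strand of mm9. Of the other genes of chromosome structure, Ncapg, a subunit of the condensin complex, had differences from 1.12 to 1.47. Cdca5, also called sororin, which protects sister chromatid cohesion, had differences from 0.50 to 1.85. Differences of the 4 genes of chromosome structure from day 0 thus ran from 0.50 to 2.99.

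Ccnb1, the cyclin B1 that drives entry into mitosis, read -4.24 and -2.98 in normalised log2 signal on the day 0 arrays. Ccnb1 in YFP-negative cells read -1.06, -1.15 and -0.43 at day 3, 0.16, -0.70 and -1.11 at day 7 and -1.34, 0.82 and -4.71 at day 14. Ccnb1 in YFP-positive cells read -0.45, 0.20, -1.74 and -1.96 at day 3, -0.90, -0.73 and 0.27 at day 7 and -1.96 and -0.88 at day 14. YFP-negative day 14 array 3 was the lowest of all 20 arrays, below both day 0 arrays, and the other 17 sorted arrays lay above both. Against day 0, Ccnb1 had fitted log2 differences of 2.73 ± 1.13, 3.06 ± 1.13 and 1.87 ± 1.13 in YFP-negative and 2.62 ± 1.07, 3.16 ± 1.13 and 2.20 ± 1.23 in YFP-positive cells at days 3, 7 and 14 (limma, adjusted p from 0.311 to 0.763). Against day 0, Ccna2, the cyclin that acts from S phase into early mitosis, had fitted log2 differences of 1.70 ± 0.99, 1.23 ± 0.99 and 1.24 ± 0.99 in YFP-negative and 1.52 ± 0.94, 2.07 ± 0.99 and 2.02 ± 1.08 in YFP-positive cells at days 3, 7 and 14 (limma, adjusted p from 0.442 to 0.764). Against day 0, Ccnb2, the second B-type cyclin, had fitted log2 differences of 1.19 ± 0.74, 2.0 ± 0.74 and 1.41 ± 0.74 in YFP-negative and 1.42 ± 0.70, 2.61 ± 0.74 and 1.91 ± 0.81 in YFP-positive cells at days 3, 7 and 14 (limma, adjusted p from 0.205 to 0.764). Ccnb2 read -3.45 and -3.36 at day 0 and -2.67 to 0.22 on the sorted arrays, so these did not overlap.

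Aurkb, the kinase of the chromosomal passenger complex, read -8.00 and -9.82 in normalised log2 signal on the day 0 arrays. Aurkb in YFP-negative cells read -3.86, -2.61 and -3.94 at day 3, -4.91, -2.59 and -4.81 at day 7 and -4.25, -3.19 and -4.30 at day 14. Aurkb in YFP-positive cells read -3.97, -3.76, -3.81 and -6.57 at day 3, -2.37, -4.0 and -2.63 at day 7 and -4.99 and -8.58 at day 14. The gene was not well above background on either day 0 array or on YFP-positive day 14 array 2, so its day 0 level was not measured. Each day 0 value was raised to the dimmest clearly detected signal of its array, or kept where it was already higher. Group means of Aurkb in YFP-negative cells were 27.9-, 18- and 20.5-fold above the mean of these at days 3, 7 and 14. In YFP-positive cells they were 13.4- and 38.7-fold above it at days 3 and 7, and no fold is given at day 14, where 1 of 2 arrays measured the gene. The dimmest detected signal is not a strict upper limit for an undetected spot, so these folds are approximate. Against day 0, Aurkb had fitted log2 differences of 5.44 ± 1.09, 4.81 ± 1.09 and 5.0 ± 1.09 in YFP-negative and 4.38 ± 1.03, 5.91 ± 1.09 and 2.13 ± 1.19 in YFP-positive cells at days 3, 7 and 14 (limma, adjusted p from 0.0812 to 0.53). These fitted values use the undetected day 0 signal and are not ranked against other genes. Without YFP-positive day 3 array 4, day 14 array 1 or day 14 array 2, the day 7 difference of YFP-positive cells passed, with adjusted p of 0.0424, 0.0498 and 0.0498. Across all fits with an array left out, 1 to 45 of the 26650 genes passed in that comparison. The Aurkb probe lies at chr11:68865037-68865096 on the plus strand of mm9.

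Birc5, survivin, the passenger complex subunit that also inhibits cell death, read 2.75 and 1.13 in normalised log2 signal on the day 0 arrays. Birc5 in YFP-negative cells read 3.88, 4.38 and 3.96 at day 3, 4.25, 4.83 and 3.23 at day 7 and 3.19, 4.67 and 3.08 at day 14. Birc5 in YFP-positive cells read 4.15, 3.73, 4.06 and 3.45 at day 3, 4.64, 3.49 and 4.28 at day 7 and 3.44 and 4.33 at day 14. All sorted arrays lay above both day 0 arrays. Against day 0, Birc5 had fitted log2 differences of 2.13 ± 0.61, 2.17 ± 0.61 and 1.71 ± 0.61 in YFP-negative and 1.91 ± 0.58, 2.20 ± 0.61 and 1.94 ± 0.67 in YFP-positive cells at days 3, 7 and 14 (limma, adjusted p from 0.201 to 0.541). Against day 0, Cdca8, borealin, the passenger complex subunit that binds survivin, had fitted log2 differences of 2.94 ± 0.70, 2.15 ± 0.70 and 2.40 ± 0.70 in YFP-negative and 2.76 ± 0.66, 3.22 ± 0.70 and 2.46 ± 0.77 in YFP-positive cells at days 3, 7 and 14 (limma, adjusted p from 0.119 to 0.444). Cdca8 read -2.16 and -1.53 at day 0 and -1.0 to 2.36 on the sorted arrays, without overlap. Both passenger subunits had an unadjusted p under 0.05 in each sorted group.

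Among the other mitotic kinases, Aurka, which matures centrosomes and spindle poles, had differences from 1.45 to 2.15, and Nek2, which splits centrosomes, from 1.2 to 3.11. Against day 0, Plk1, the Polo kinase of centrosomes, kinetochores and cytokinesis, had fitted log2 differences of 1.12 ± 0.56, 1.47 ± 0.56 and 0.48 ± 0.56 in YFP-negative and 0.40 ± 0.53, 1.21 ± 0.56 and 0.89 ± 0.61 in YFP-positive cells at days 3, 7 and 14 (limma, adjusted p from 0.425 to 0.842). Plk1 read -1.91 and -2.23 at day 0, and YFP-negative day 14 array 3, at -2.31, and YFP-positive day 3 array 2, at -2.58, lay below both. Over the 7 cyclins and kinases the median difference of a sorted group from day 0 was 1.41 to 2.61.

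The 4 genes of the spindle assembly checkpoint stood lower, with medians from 0.32 to 0.86 across the sorted groups. The 4 genes of anaphase and protein destruction were also low, with medians from -0.12 to 0.89. Bub1b, the checkpoint protein BubR1, read -3.05 and -1.77 in normalised log2 signal on the day 0 arrays. Bub1b in YFP-negative cells read -2.24, -2.52 and -2.51 at day 3, -3.15, -1.56 and -3.39 at day 7 and -1.87, -2.04 and -2.68 at day 14. Bub1b in YFP-positive cells read -2.30, -1.51, -2.10 and -0.13 at day 3, -2.0, -3.74 and -1.67 at day 7 and -1.77 and -2.24 at day 14. The day 0 arrays lay inside the range of the sorted arrays. Against day 0, Bub1b had fitted log2 differences of -0.01 ± 0.73, -0.29 ± 0.73 and 0.21 ± 0.73 in YFP-negative and 0.90 ± 0.70, -0.06 ± 0.73 and 0.40 ± 0.80 in YFP-positive cells at days 3, 7 and 14 (limma, adjusted p from 0.679 to 0.998). Bub1, a kinase that places checkpoint proteins on kinetochores, had differences from -1.37 to 0.49, and its day 0 values of -2.19 and -2.67 lay inside the range of -4.85 to -0.41 on sorted arrays. Mad2l1, the Mad2 protein that restrains Cdc20, had differences from 0.42 to 1.88, and Ttk, the kinase Mps1 that starts the checkpoint, from 0.43 to 2.83.

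Genes of the kinetochore and centromere differed among themselves. Cenpa, the histone H3 variant that marks centromeres, read 0.44 and 0.98 in normalised log2 signal on the day 0 arrays. Cenpa in YFP-negative cells read 0.42, 0.34 and 0.30 at day 3, -0.35, 0.43 and -0.46 at day 7 and 0.60, 0.16 and -0.36 at day 14. Cenpa in YFP-positive cells read -0.86, -0.61, 0.66 and -2.85 at day 3, 0.53, -0.74 and 0.05 at day 7 and -1.63 and -1.06 at day 14. Day 0 array 2 was the highest of the 20, and YFP-positive day 3 array 4 the lowest. Against day 0, Cenpa had fitted log2 differences of -0.36 ± 0.72, -0.84 ± 0.72 and -0.58 ± 0.72 in YFP-negative and -1.62 ± 0.69, -0.76 ± 0.72 and -2.06 ± 0.79 in YFP-positive cells at days 3, 7 and 14 (limma, adjusted p from 0.336 to 0.899). The large coiled-coil kinetochore protein gene Cenpf lay at the other end, with differences from 1.64 to 4.11 and an adjusted p of 0.117 in YFP-positive cells at day 7. Spc25, Ndc80 and Nuf2, 3 subunits of the complex that holds microtubules, had differences from 0.53 to 1.75, 0.79 to 2.23 and -0.50 to 1.36. Cenpe, a kinetochore motor, had differences from 0.64 to 1.52.

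Kif23, a motor of the centralspindlin complex of the midzone, read -4.40 and -2.19 in normalised log2 signal on the day 0 arrays. Kif23 in YFP-negative cells read -0.22, 1.06 and 0.27 at day 3, 0.19, 0.65 and -1.03 at day 7 and -1.63, -0.36 and -2.22 at day 14. Kif23 in YFP-positive cells read 0.72, 1.07, -0.46 and 0.65 at day 3, 1.49, -1.2 and 0.88 at day 7 and -1.67 and 0.07 at day 14. YFP-negative day 14 array 3 lay between the day 0 arrays, and the other 17 sorted arrays lay above both. Against day 0, Kif23 had fitted log2 differences of 3.67 ± 0.89, 3.24 ± 0.89 and 1.90 ± 0.89 in YFP-negative and 3.79 ± 0.84, 3.69 ± 0.89 and 2.50 ± 0.98 in YFP-positive cells at days 3, 7 and 14 (limma, adjusted p from 0.157 to 0.433). Against day 0, Kif11, the motor that pushes spindle poles apart, had fitted log2 differences of 1.57 ± 0.98, 1.1 ± 0.98 and 1.04 ± 0.98 in YFP-negative and 2.53 ± 0.93, 1.1 ± 0.98 and 0.75 ± 1.07 in YFP-positive cells at days 3, 7 and 14 (limma, adjusted p from 0.413 to 0.849). Kif11 read -2.16 and -3.59 at day 0, and 5 sorted arrays lay below the higher of these. Kif20a, a motor of cytokinesis, had differences from 1.95 to 2.98 and Tpx2, which activates Aurora A on the spindle, from 1.26 to 3.11, and neither overlapped with day 0. Dlgap5, a spindle-stabilising protein, reached 3.51 in YFP-positive cells at day 3 and 0.57 in YFP-negative cells at day 14, with standard errors of 1.35 and 1.42. Spag5, the spindle protein astrin, had differences from 0.83 to 2.96. Prc1, the microtubule bundler of the midzone, had differences from -0.05 to 1.69, and Nusap1, a spindle-associated protein, from -0.70 to 0.29. The motors Kif2c, a microtubule depolymerase, and Kif4, a chromosome-bound kinesin, had differences from -0.89 to 1.2 and from -1.44 to 0.42.

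Cdc20, the activator of the anaphase-promoting complex, read -1.19 and -1.15 in normalised log2 signal on the day 0 arrays. Cdc20 in YFP-negative cells read 0.07, 0.11 and -0.15 at day 3, 1.08, 0.54 and 0.19 at day 7 and -1.05, 0.19 and -0.04 at day 14. Cdc20 in YFP-positive cells read 0.34, 0.52, -0.36 and 1.56 at day 3, 1.73, 0.55 and 0.32 at day 7 and 0.30 and 1.66 at day 14. Every sorted array lay above both day 0 arrays, the lowest being YFP-negative day 14 array 1. Against day 0, Cdc20 had fitted log2 differences of 1.18 ± 0.59, 1.77 ± 0.59 and 0.87 ± 0.59 in YFP-negative and 1.68 ± 0.56, 2.03 ± 0.59 and 2.15 ± 0.65 in YFP-positive cells at days 3, 7 and 14 (limma, adjusted p from 0.214 to 0.764). In YFP-positive cells at day 14 this was 4.42-fold, and its adjusted p was the lowest of the 37 genes there. The probe lies at chr4:118105536-118105595 on the minus strand of mm9.

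Ube2c, the ubiquitin-conjugating enzyme that works with that complex, read -1.2 and -2.20 in normalised log2 signal on the day 0 arrays. Ube2c in YFP-negative cells read -2.37, -0.50 and -1.36 at day 3, -2.78, -1.60 and -2.48 at day 7 and -2.13, -0.47 and -2.95 at day 14. Ube2c in YFP-positive cells read -0.13, -1.99, -1.86 and -3.23 at day 3, -2.62, -2.76 and -2.11 at day 7 and -1.98 and -2.13 at day 14. Both day 0 arrays lay inside the range of the sorted arrays. Against day 0, Ube2c had fitted log2 differences of 0.29 ± 0.83, -0.59 ± 0.83 and -0.15 ± 0.83 in YFP-negative and -0.10 ± 0.78, -0.80 ± 0.83 and -0.36 ± 0.91 in YFP-positive cells at days 3, 7 and 14 (limma, adjusted p from 0.72 to 0.98). Pttg1, securin, the inhibitor of separase that the complex destroys, read 3.27 and 3.42 in normalised log2 signal on the day 0 arrays. Pttg1 in YFP-negative cells read 2.29, 2.23 and 2.69 at day 3, 3.12, 2.47 and 1.88 at day 7 and 3.10, 2.81 and 2.21 at day 14. Pttg1 in YFP-positive cells read 2.44, 2.49, 2.80 and 2.24 at day 3, 2.77, 1.83 and 2.46 at day 7 and 2.43 and 2.43 at day 14. Both day 0 arrays were above every sorted array. Against day 0, Pttg1 had fitted log2 differences of -0.94 ± 0.41, -0.85 ± 0.41 and -0.63 ± 0.41 in YFP-negative and -0.85 ± 0.39, -0.99 ± 0.41 and -0.91 ± 0.45 in YFP-positive cells at days 3, 7 and 14 (limma, adjusted p from 0.393 to 0.764). The authors' deposited table gave Pttg1 signed folds of 1.07 to 1.30 against day 0, above 1, with false discovery rates of 50.8 to 61.8 percent. Cdca3, which prompts mitotic entry, had the widest standard errors, from 1.87 to 2.16, and its value of -9.0 on YFP-positive day 3 array 4 was not well above background.

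**Figure D2:**
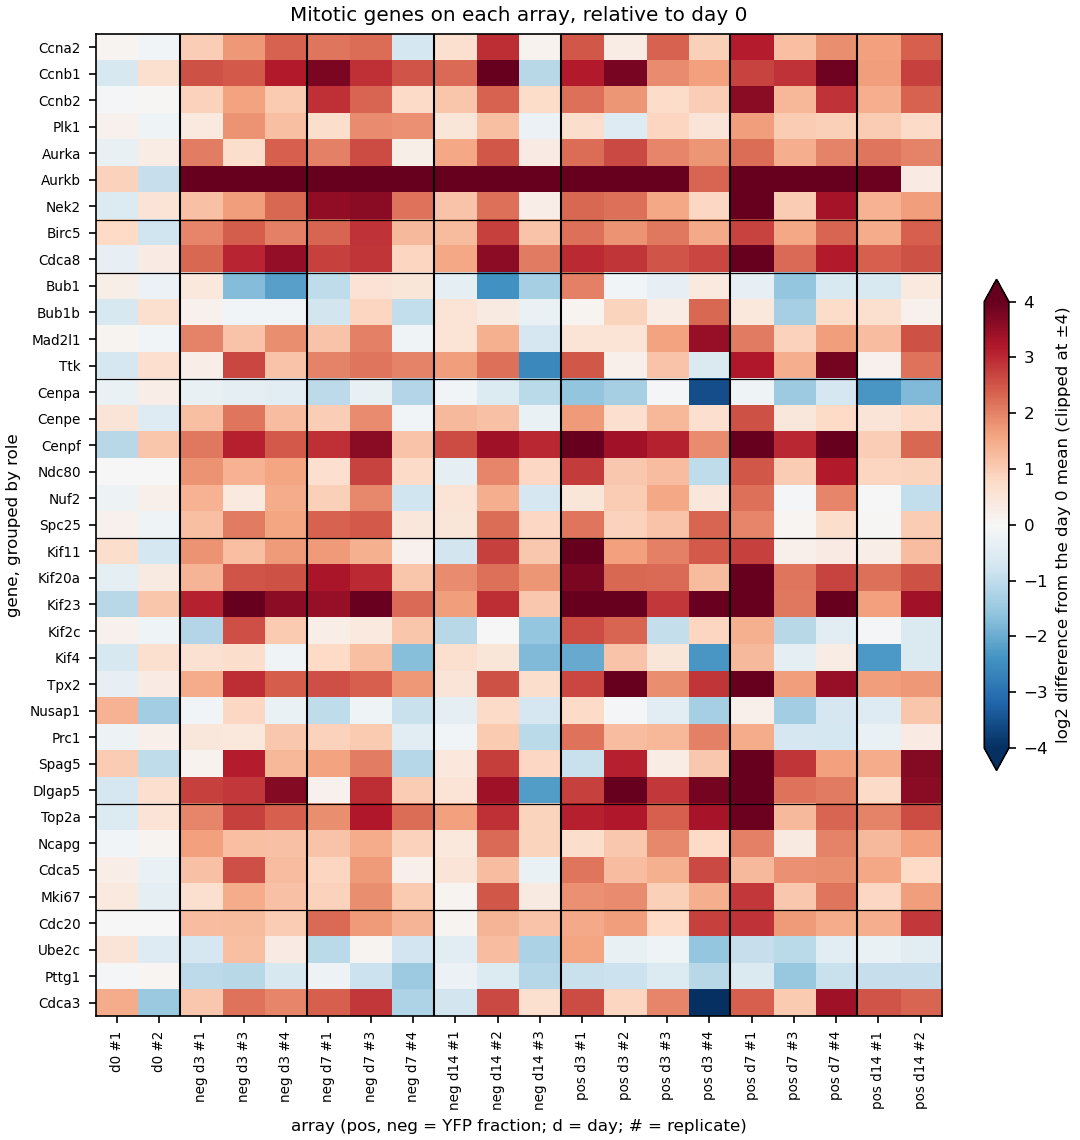
Normalised log2 signal of the 37 mitotic genes (rows, grouped by role: cyclins and kinases, passenger complex, checkpoint, kinetochore, motors and spindle, chromosome structure, anaphase) on the 20 arrays (columns), as the log2 difference from the mean of the 2 day 0 arrays, with colours clipped at 4 in either direction. Red dominates the sorted arrays in most rows, while Bub1, Cenpa, Nusap1, Ube2c and Pttg1 are pale or blue.

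The array mean of the 37 genes, each as deviation from its mean over 20 arrays, was -1.24 on both day 0 arrays. YFP-negative arrays had means of -0.05, 0.53 and 0.31 at day 3, 0.23, 0.81 and -0.69 at day 7 and -0.53, 0.69 and -1.1 at day 14. YFP-positive arrays had means of 0.67, 0.41, 0.15 and -0.25 at day 3, 1.33, -0.36 and 0.57 at day 7 and -0.38 and 0.15 at day 14. The 2 day 0 arrays were the lowest of the 20, with YFP-negative day 14 array 3 next at -1.1. YFP-positive day 7 array 1 was highest and held the highest value of 16 of the 37 genes. Within groups the pooled SD of the array means was 0.599, and the group means were 0.26, 0.11 and -0.31 in YFP-negative and 0.24, 0.52 and -0.11 in YFP-positive cells.

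Marker lists of other cells were set beside these means. The pan-leukocyte mean was 0.10 and -2.84 on the day 0 arrays, which had the same mitotic mean. YFP-positive day 3 array 4 had the lowest pan-leukocyte mean of all arrays, -4.29, and the YFP-positive day 14 arrays had -4.17 and -2.72, while their mitotic means of -0.25, -0.38 and 0.15 lay above both day 0 arrays. YFP-positive day 7 array 1 had a pan-leukocyte mean of -1.57 with the highest mitotic mean, and array 3 of that group 2.99 with -0.36. Group means of the pan-leukocyte genes were 1.55, 1.55 and -1.55 in YFP-negative cells at days 3, 7 and 14. In YFP-positive cells they were 0.16, 1.44 and -3.45, and at day 0 the mean was -1.37. In each fraction the mitotic and the pan-leukocyte genes both had their lowest group mean at day 14. Over the mean of the 6 sorted groups all 6 pan-leukocyte genes and all 8 measured neutrophil genes of 10 were above day 0, with medians of 1.36 and 1.88, and none passed. Of all genes 33.6% were positive in that comparison, with a median of -0.34, and 0.128% passed. The hepatocyte list had 9 of 11 measured genes positive (median 0.98), the biliary list 13 of 16 (0.73), the macrophage list 8 of 12 (0.74), the stellate list 9 of 14 (0.58) and the lymphocyte list 5 of 12 (-0.25). The endothelial list had a positive difference for 1 of 12 genes (median -0.90) and the erythroid list for 2 of 11 (median -1.01). The part of these lists in the mitotic values was not tested.

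**Figure D3:**
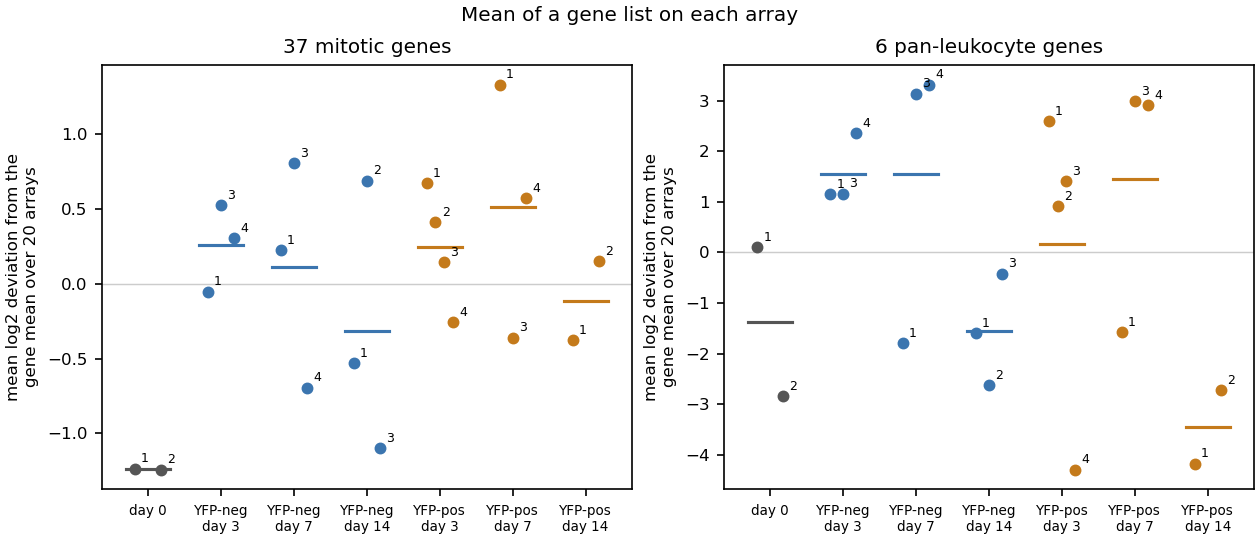
Mean of the 37 mitotic genes (left) and of 6 pan-leukocyte genes (right) on each array, as log2 deviation from each gene's mean over 20 arrays (vertical axis), by group, with the replicate number beside each point and a line at the group mean. The 2 day 0 arrays sit together at -1.24 for the mitotic genes but apart, at 0.10 and -2.84, for the pan-leukocyte genes.

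Arrays on the same slide gave the same order. On slide 1 the median log2 difference of the 37 genes from the day 0 array was 1.08 for the YFP-negative day 3 array (30 of 37 higher, 40.6% of all genes), 1.98 for the YFP-positive day 3 array (32 of 37, 36.5% of all genes) and 1.03 for the YFP-positive day 14 array (26 of 37, 36.5% of all genes). On slide 3 it was 1.32 for a YFP-positive day 3 array (31 of 37, 40.1% of all genes). Each of these is 1 array minus 1 array. With slide added as a fixed term, the median over the mean of the sorted groups was 1.47.

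Other probes of the same genes were read next. Of the 37 genes 19 had more than 1 probe past the filter, and 16 of their 24 other probes had the sign of the main probe over the mean of sorted groups against day 0. The 3 probes of Ccnb1 gave 2.61, 2.35 and 3.14, those of Kif23 3.13 and 2.53, and those of Mki67 1.36 and 2.24. Of the 3 Top2a probes, 2 gave 2.40 and 2.37, and the third, designed to a cDNA clone and well above background on 9 arrays, gave -0.91. Likewise probes designed to cDNA clones gave -1.11 for Cdca8, -0.52 for Kif11 and -3.35 for Nuf2, where the main probes gave 2.65, 1.35 and 0.66. These clone probes were well above background on 20, 2 and 4 arrays. The Kif11 and Nuf2 values thus rest mostly on signal not well above background. The second probe of Cenpf, well above background on 12 arrays, gave -0.90 against 2.84, and those of Cdca5 and Spag5 gave -0.18 each against 1.30 and 1.69. For Bub1 the probes gave -0.49 and 0.04, and both probes of Cenpa were below 0, at -1.04 and -2.36.

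The authors' deposited table, whose method is not stated, gives a signed linear fold of each sorted group against day 0 and a false discovery rate. At a rate under 10 percent, a threshold chosen after seeing the data, the authors' deposited table called 21, 24 and 5 of 37 mitotic genes higher in YFP-negative cells at days 3, 7 and 14, where it called 5.1, 5.83 and 3.33% of all genes higher. In YFP-positive cells the authors' deposited table called 23, 27 and 18 higher, where it called 4.5, 8.66 and 14.6% of all genes higher. It called 0, 1 and 0 lower (0.227, 5.12 and 0.355% of all genes) and 1, 1 and 2 lower (4.42, 11.2 and 11% of all genes). At 5 percent the counts of higher genes in the authors' deposited table were 19, 17 and 2 (3.44, 3.05 and 1.34% of all genes) and 18, 26 and 12 (1.59, 5.37 and 9.13%). It called 1 lower at that rate, in YFP-positive cells at day 14, where it called 6.7% of all genes lower; in the other columns 0 members were lower (0.0567, 0.423 and 0.0832% and 0.363 and 4.95% of all genes). For Aurkb the authors' deposited table gave 33.7-, 21.7- and 25.8-fold in YFP-negative cells and 15.6-, 43.6- and 1.99-fold in YFP-positive cells, the last at a rate of 37.3 percent. For Top2a the authors' deposited table gave 5.21-, 5.12- and 3.20-fold and 7.32-, 5.99- and 3.81-fold, with a rate over 10 percent only in YFP-negative cells at day 14. Cenpa was below day 0 in each column of the authors' deposited table, from a signed fold of -1.56 to one of -5.16, the last in YFP-positive cells at day 14 at a rate of 0.86 percent.

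Promoters of the 37 genes were then read. The genes were chosen by name as mitotic, so the motif shares in their promoters do not depend on the array values. Late cell cycle genes are known to carry a CHR, the element bound by the DREAM and B-Myb complexes, and CCAAT boxes bound by NF-Y. RefSeq promoters of GRCm38.p6, from 250 bases before to 50 after the transcription start, were matched for 32 of the 37 genes (33 promoters, since 1 gene has 2). The letters of the CHR, TTTGAA on either strand, stood in 24 of 33 promoters (72.7%), where 17.9% of 32851 RefSeq promoters of the same length held them. The letters CCAAT on either strand stood in 25 of 33 (75.8%), where 37.4% of all promoters held them. Both stood in 63.6% of the mitotic promoters and in 6.95% of all. The E2F-like letters TTTCGCGC, TTTGGCGC or TTCCCGCC on either strand stood in 0 of 33, where 2.96% of all promoters held them. The 23 genes with a CHR had a median difference of 1.35 over the mean of sorted groups, 20 of them above 0, and the 9 matched genes without it a median of 1.03, with 6 above 0.

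The 160 bases before the start are shown for 3 genes that stood above day 0 on every sorted array, Top2a, Cdc20 and Ncapg, and for 2 that did not, Ube2c and Pttg1. Each is written 5′ to 3′ along the gene, in lower case, with CHR and CCAAT matches on either strand in capitals.
Top2a, chr11:99024190-99024349, minus strand: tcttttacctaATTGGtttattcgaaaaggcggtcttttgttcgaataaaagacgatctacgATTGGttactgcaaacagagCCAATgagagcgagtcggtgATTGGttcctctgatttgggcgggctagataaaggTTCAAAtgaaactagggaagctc
Cdc20, chr4:118437344-118437503, minus strand: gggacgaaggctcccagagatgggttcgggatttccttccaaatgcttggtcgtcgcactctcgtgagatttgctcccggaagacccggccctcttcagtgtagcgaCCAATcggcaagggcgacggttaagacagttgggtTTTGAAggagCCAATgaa
Ncapg, chr5:45669765-45669924, plus strand: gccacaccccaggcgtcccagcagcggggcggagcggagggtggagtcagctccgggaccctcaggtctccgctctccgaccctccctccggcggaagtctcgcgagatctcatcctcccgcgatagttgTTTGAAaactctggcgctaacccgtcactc
Ube2c, chr2:164769769-164769928, plus strand: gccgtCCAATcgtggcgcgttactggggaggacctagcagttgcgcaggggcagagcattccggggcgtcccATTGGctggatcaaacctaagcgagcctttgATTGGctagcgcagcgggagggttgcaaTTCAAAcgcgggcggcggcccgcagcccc
Pttg1, chr11:43425982-43426141, minus strand: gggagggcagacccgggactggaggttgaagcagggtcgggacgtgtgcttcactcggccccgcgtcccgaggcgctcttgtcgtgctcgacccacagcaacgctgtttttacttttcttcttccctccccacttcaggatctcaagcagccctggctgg
Top2a carries 4 CCAAT matches and 1 CHR in this window, Cdc20 2 and 1, Ncapg 0 and 1, and Pttg1 neither. Ube2c, whose log2 differences from day 0 ran from -0.80 to 0.29, carries 3 CCAAT matches and 1 CHR, and Birc5, above day 0 on every sorted array, has no CHR in the whole window. A match is a run of letters and not a measured binding site.

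**Figure D4:**
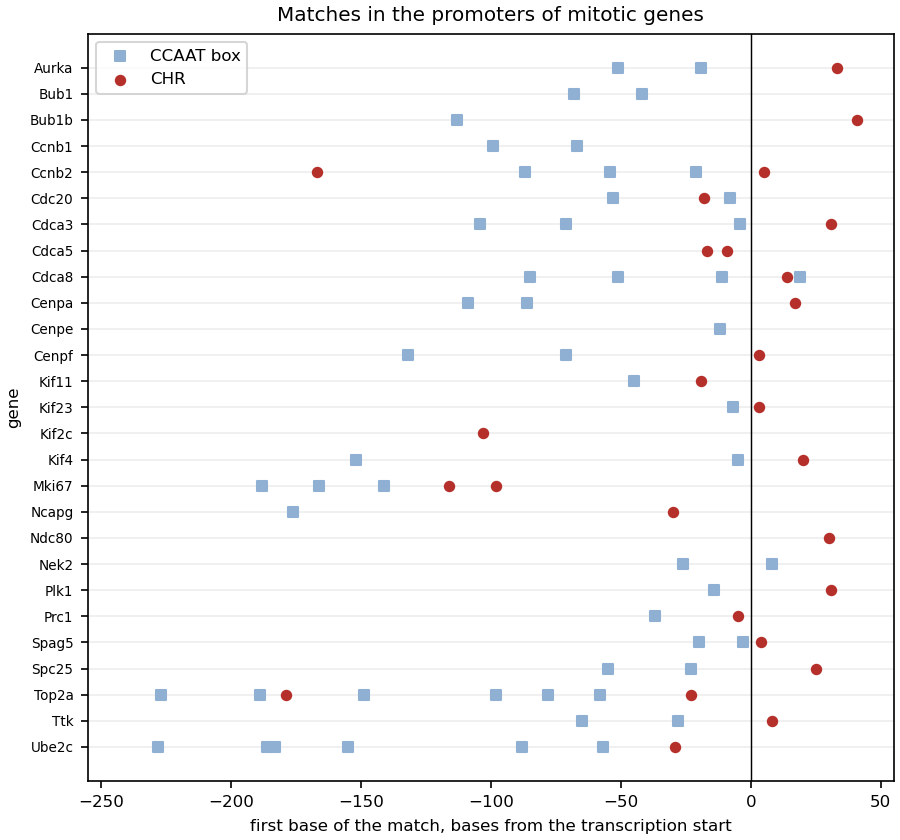
First base of each CHR (red circles) and CCAAT (blue squares) match in RefSeq promoters of mitotic genes (rows), in bases from the transcription start (horizontal axis, 1 promoter per gene, window from 250 bases before to 50 after). Genes without either match are not drawn; most CHR matches lie within a short distance of the start, downstream of the CCAAT matches.

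The comparison of the YFP fractions asks whether cells of the Foxl1-Cre lineage carried more mitotic RNA than their YFP-negative neighbours. Over the mean of days 28 of 37 genes were higher in YFP-positive cells, where 52.9% of all genes were, with a median log2 difference of 0.22 against 0.05. By limma 0 passed, where 0.63% of all genes did, with 2 at an unadjusted p under 0.05 (21.4% of all genes): Cdc20 was higher, at 0.68 ± 0.31, and Cenpa lower, at -0.89 ± 0.38 (adjusted p = 0.226 and 0.197). Highest were Dlgap5 at 1.32 ± 0.75, Spag5 at 0.90 ± 0.69 and Bub1 at 0.69 ± 0.45, and lowest were Cenpa, Kif4 at -0.66 ± 0.59 and Spc25 at -0.49 ± 0.38. Aurkb, at -0.94 ± 0.57, includes an array that did not measure it and is not ranked. Fitted log2 differences over the mean of days were 0.48 for Mki67, 0.39 for Top2a, 0.10 for Ccnb1, 0.48 for Ccna2, -0.19 for Plk1, -0.94 for Aurkb, 0.01 for Birc5, 0.45 for Bub1b, 0.68 for Cdc20, -0.89 for Cenpa, -0.27 for Ube2c and 0.22 for Kif11, with standard errors of 0.29 to 0.59. The 95% interval of the difference was -0.26 to 1.23 for Mki67 and -0.42 to 1.2 for Top2a, so differences of either sign remain within it. Leaving out YFP-negative day 7 array 4 gave a median of 0.07, and leaving out day 14 array 2 of that fraction gave 0.47.

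**Figure D5:**
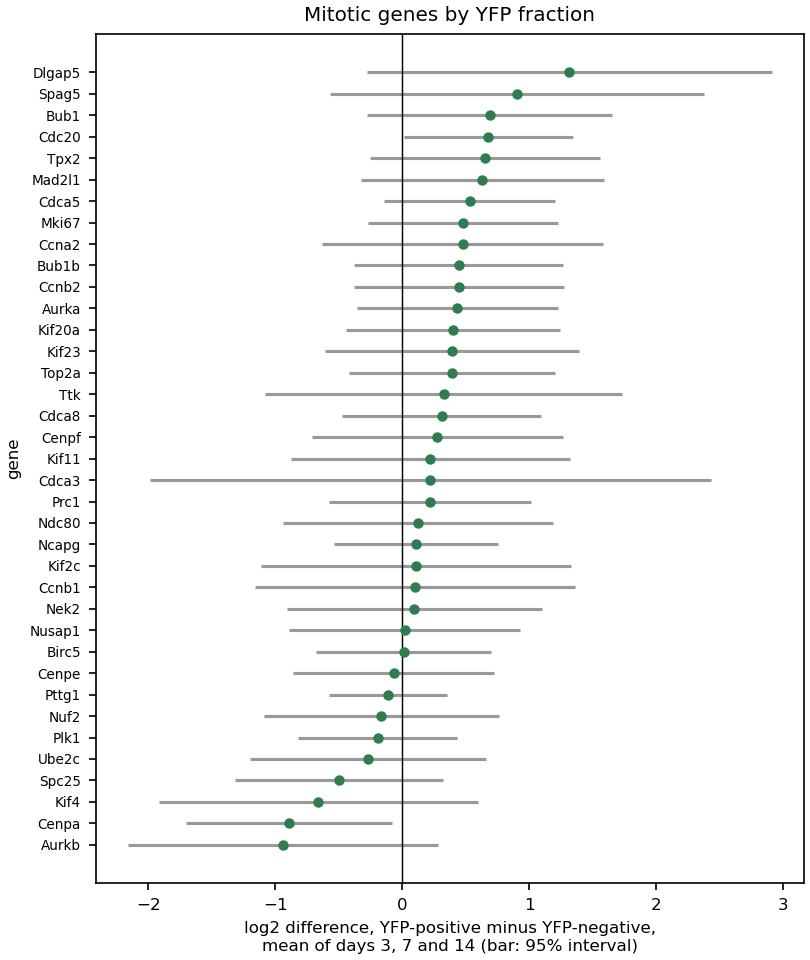
Log2 difference between YFP-positive and YFP-negative cells over the mean of days 3, 7 and 14 (horizontal axis) for each of the 37 mitotic genes (rows, sorted), with the 95% interval of the fit as a bar. Intervals of 35 genes cross 0, and those of Cdc20 and Cenpa do not.

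At day 3 the fractions had a median log2 difference of 0.00 with 19 of 37 genes positive (56.7% of all genes), and 0 passed by limma, as for all genes, with 1 at an unadjusted p under 0.05 (7.86% of all genes). Day 3 log2 differences between the fractions were 0.44 for Mki67, 0.63 for Top2a, -0.11 for Ccnb1, -0.18 for Ccna2, -0.72 for Plk1, -1.06 for Aurkb, -0.23 for Birc5, 0.91 for Bub1b, 0.50 for Cdc20, -1.27 for Cenpa, -0.39 for Ube2c and 0.97 for Kif11, with standard errors of 0.47 to 0.94. Bub1, at 1.65 ± 0.72, Prc1, at 1.05 ± 0.59, and Kif11 were highest, and Cenpa, Kif4, at -1.06 ± 0.94, and Aurkb were lowest among genes detected on every array of that day. The brighter Cdca3 probe, not well above background on YFP-positive day 3 array 4, gave -1.85, and the other, detected on all 20 arrays, gave 0.63. The other Kif11 probes, well above background on 20 and 2 arrays, gave -0.27 and 0.49. At day 7 the median was 0.31 with 28 of 37 positive (49.4% of all genes), 0 passed by limma as for all genes, and 0 had an unadjusted p under 0.05 (5.35% of all genes). Day 7 log2 differences between them were 0.73 for Mki67, 0.09 for Top2a, 0.09 for Ccnb1, 0.84 for Ccna2, -0.26 for Plk1, 1.11 for Aurkb, 0.03 for Birc5, 0.23 for Bub1b, 0.26 for Cdc20, 0.08 for Cenpa, -0.21 for Ube2c and -0.01 for Kif11, with standard errors of 0.50 to 1.01. Spag5, at 2.13 ± 1.17, Dlgap5, at 1.91 ± 1.27, and Cenpf, at 1.55 ± 0.79, were highest, and Spc25, at -0.85 ± 0.65, Bub1, at -0.84 ± 0.77, and Kif2c, at -0.64 ± 0.97, were lowest. The second Spag5 probe gave -0.34 and the second Bub1 probe 0.04, and both were detected on all 20 arrays. Leaving out YFP-negative array 4 of that day turned the median to -0.09, and leaving out YFP-positive array 1 to -0.01. At day 14 it was 0.34 with 27 of 37 positive (54.5% of all genes), 0 passed by limma (0.0225% of all genes did), with 2 at an unadjusted p under 0.05 (12.2% of all genes). The day 14 log2 differences were 0.28 for Mki67, 0.46 for Top2a, 0.32 for Ccnb1, 0.77 for Ccna2, 0.41 for Plk1, -2.87 for Aurkb, 0.24 for Birc5, 0.19 for Bub1b, 1.28 for Cdc20, -1.48 for Cenpa, -0.20 for Ube2c and -0.29 for Kif11, with standard errors of 0.56 to 1.13. Dlgap5, at 1.61 ± 1.42, Cdca3, at 1.58 ± 1.97, and Mad2l1, at 1.46 ± 0.86, were highest, and Cenpa, Cenpf, at -1.36 ± 0.88, and Kif4, at -1.23 ± 1.12, were lowest. The other Cdca3 probe, detected on all 20 arrays, gave -0.23, and the other Cenpf probe, well above background on 12 arrays, gave 1.18. Aurkb is not ranked, since YFP-positive array 2 of that day did not measure it. Leaving out YFP-negative array 3 of that day turned the median to -0.01, leaving out YFP-positive array 2 gave 0.05 and leaving out YFP-negative array 2 gave 0.81.

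Slides that held both fractions differed in sign. The YFP-positive minus YFP-negative median of the 37 genes was 0.94 on slide 1 at day 3 (28 of 37 higher, 40% of all genes), -0.57 on slide 4 at day 7 (9 of 37, 50.5% of all genes) and 1.38 on slide 7 at day 7 (33 of 37, 35.6% of all genes). Each is 1 array minus 1 array, and no slide held both fractions at day 14.

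Over time, YFP-negative cells had lower mitotic signal at day 14 than at day 3 for most genes, without a gene past the threshold. Only 4 of 37 genes had a positive day 14 minus day 3 difference (46.2% of all genes), the median was -0.51, and 0 passed by limma, as for all genes, with 2 at an unadjusted p under 0.05 (3.71% of all genes). YFP-negative day 14 minus day 3 log2 differences were -0.12 for Mki67, -0.55 for Top2a, -0.86 for Ccnb1, -0.45 for Ccna2, -0.64 for Plk1, -0.44 for Aurkb, -0.42 for Birc5, 0.23 for Bub1b, -0.31 for Cdc20, -0.22 for Cenpa, -0.44 for Ube2c and -0.53 for Kif11, with standard errors of 0.50 to 1.01. Dlgap5, at -2.51 ± 1.27, Kif23, at -1.77 ± 0.80, and Kif2c, at -1.72 ± 0.97, were lowest, and Cenpf, at 0.45 ± 0.79, Pttg1, at 0.31 ± 0.37, and Bub1b were highest. Leukocyte lists were lower in the same comparison: 0 of 6 pan-leukocyte genes were positive (median -3.05), 0 of 12 macrophage genes (-2.92), 0 of 8 neutrophil genes (-1.13) and 1 of 12 lymphocyte genes (-2.95, 7 lower at an unadjusted p under 0.05). Their part in the mitotic values was not tested. Without array 3 of day 14 the median was -0.09 with 15 of 37 positive, and without array 2 of day 14 it was -1.01. Within slides the median was 0.28 on slide 6 (23 of 37 higher, 41.2% of all genes) and -1.42 on slide 7 (3 of 37 higher, 59.1% of all genes).

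Between days 3 and 7 YFP-negative cells had 14 of 37 genes positive (53.4% of all genes) and a median of -0.21. By limma 0 passed, as for all genes, and none had an unadjusted p under 0.05 (3.68% of all genes). The day 7 minus day 3 log2 differences of these cells were 0.19 for Mki67, 0.07 for Top2a, 0.33 for Ccnb1, -0.47 for Ccna2, 0.35 for Plk1, -0.63 for Aurkb, 0.03 for Birc5, -0.28 for Bub1b, 0.59 for Cdc20, -0.48 for Cenpa, -0.87 for Ube2c and -0.47 for Kif11, with standard errors of 0.50 to 1.01. Nek2, at 1.40 ± 0.80, Bub1, at 1.18 ± 0.77, and Ccnb2, at 0.82 ± 0.66, were highest, and Dlgap5, at -1.70 ± 1.27, Ube2c and Nusap1, at -0.84 ± 0.73, were lowest. The second Bub1 probe, detected on all 20 arrays, gave -0.02. The median turned to 0.28 without YFP-negative day 7 array 4 and was -0.60 without array 3 of that day.

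YFP-positive cells had 23 of 37 genes positive from day 3 to day 7 (42% of all genes), with a median of 0.33. By limma 0 passed, as for all genes, and Prc1 alone had an unadjusted p under 0.05 (4.56% of all genes), at -1.65 ± 0.59. YFP-positive day 7 minus day 3 log2 differences were 0.48 for Mki67, -0.47 for Top2a, 0.53 for Ccnb1, 0.55 for Ccna2, 0.81 for Plk1, 1.53 for Aurkb, 0.29 for Birc5, -0.96 for Bub1b, 0.35 for Cdc20, 0.86 for Cenpa, -0.69 for Ube2c and -1.44 for Kif11, with standard errors of 0.47 to 0.94. Spag5, at 2.07 ± 1.1, Ttk, at 2.0 ± 1.05, and Aurkb were highest, and Prc1, Kif11 and Bub1, at -1.31 ± 0.72, were lowest among genes detected on every array of both days. The probes of Cdca3 gave 2.40 and -0.78. The second Spag5 probe gave -0.67, and the other Kif11 probes, well above background on 20 and 2 arrays, gave 0.20 and -0.03. Without YFP-positive day 7 array 1 the median was -0.0041, and without array 3 of that day it was 0.68. From day 3 to day 14 the median was -0.30 with 11 of 37 positive (46.9% of all genes), 0 passed by limma (0.0263% of all genes did), with 2 at an unadjusted p under 0.05 (6.34% of all genes). For day 14 minus day 3 they were -0.27 for Mki67, -0.71 for Top2a, -0.43 for Ccnb1, 0.50 for Ccna2, 0.49 for Plk1, -2.25 for Aurkb, 0.04 for Birc5, -0.50 for Bub1b, 0.46 for Cdc20, -0.44 for Cenpa, -0.25 for Ube2c and -1.78 for Kif11, with standard errors of 0.53 to 1.07. Spag5, at 1.69 ± 1.24, Nusap1, at 0.56 ± 0.77, and Ccna2 were highest, and Kif11, Prc1, at -1.66 ± 0.67, and Cenpf, at -1.55 ± 0.83, were lowest among genes detected on all arrays. The value of Aurkb includes YFP-positive day 14 array 2, where it was not well above background, and the probes of Cdca3 gave 2.55 and -0.92. The second Cenpf probe, well above background on 12 arrays, gave 0.37. Leaving out 1 array moved the median from -0.47 (without YFP-positive day 3 array 4) to -0.09 (without day 14 array 1). Within slides the day 14 minus day 3 median was -0.98 on slide 1 (5 of 37 higher, 51% of all genes) and -0.21 on slide 2 (15 of 37, 57.3% of all genes).

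The difference of the 2 time courses, day 14 minus day 3 in YFP-positive less that in YFP-negative cells, had a median of 0.24 with 23 of 37 genes positive (50.8% of all genes). By limma 0 passed, as for all genes, and 0 had an unadjusted p under 0.05 (2.91% of all genes). Log2 differences of the change were -0.16 for Mki67, -0.16 for Top2a, 0.43 for Ccnb1, 0.96 for Ccna2, 1.13 for Plk1, -1.81 for Aurkb, 0.46 for Birc5, -0.73 for Bub1b, 0.77 for Cdc20, -0.21 for Cenpa, 0.19 for Ube2c and -1.25 for Kif11, with standard errors of 0.73 to 1.47. Spag5, at 1.89 ± 1.71, Mad2l1, at 1.57 ± 1.11, and Ttk, at 1.27 ± 1.63, were highest, and Cenpf, at -2.0 ± 1.15, Kif11 and Prc1, at -0.97 ± 0.92, were lowest among genes detected on all arrays. The probes of Cdca3 gave 3.43 and -0.86. The median was -0.29 with slide as a fixed term, -0.22 when YFP-negative day 14 array 3 was left out and -0.01 when YFP-positive day 14 array 2 was.

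Further cell cycle genes were read from 3 lists. Of 47 other mitotic genes 45 were measured under the listed name, and over the mean of sorted groups against day 0 34 of them were positive, with a median of 0.94, 13 higher at an unadjusted p under 0.05 and 0 past the threshold. Of all genes 33.6% were positive, 3.36% higher at that p and 0.128% past the threshold, for this and the next lists. Foxm1, the forkhead factor that drives late cell cycle transcription, had a difference of 0.92 ± 1.15. Of 35 genes of DNA replication and S phase 34 were measured, 29 were positive with a median of 0.72, 11 were higher at an unadjusted p under 0.05 and 0 passed. Pcna, the sliding clamp of DNA polymerase, had a difference of 0.57 ± 0.26 (limma, adjusted p = 0.472). Of 20 genes of G1 and cell cycle arrest 9 were positive, with a median of -0.10, 1 was higher and 1 lower at an unadjusted p under 0.05, and 0 passed. Ccnd1, the D-type cyclin of G1, had a difference of -0.28 ± 0.52.

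Between the fractions over the mean of days, 27 of 34 genes of DNA replication and S phase were higher in YFP-positive cells. The list median was 0.31, and 52.9% of all genes were higher. Of these 34 genes, 8 were higher at an unadjusted p under 0.05, where 13.9% of all genes were higher at that level. Of the 45 other mitotic genes 28 were higher (median 0.15), 3 at that level. Of the G1 and arrest genes, Gas1, a membrane protein induced in growth arrest, was lower in YFP-positive cells and passed, at -3.16 ± 0.66 (limma, adjusted p = 0.0417). Ccnd1 had a difference of 1.13 ± 0.34 (limma, adjusted p = 0.0956) and Foxm1 one of 0.15 ± 0.74. Over the same comparison 6 of 14 stellate and myofibroblast markers were lower past the threshold, where 0.63% of all genes passed in either direction. The part of these markers in the value of Gas1 was not tested.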

How the data were processed

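RNA of 20 samples was read on Agilent 1-colour arrays (design 014868, Feature Extraction 10.5.1.1, per the file headers; the submitters' processing notes name version 9.53), 1 per sample, as amplified cDNA carrying Cy3, per the labels. The deposited intensity used is the processed signal, background-subtracted per the file headers but not scaled across arrays; mean signal and local background intensity, also deposited, served the normexp alternative (offset 50). The authors' deposited table holds signed fold ratio values and a false discovery rate in percent; its method is not given in the sources used here. Leaving out control spots left 43379 spots; outlier flags were dropped, spots of a probe averaged and log2 signal minus the array's 75th percentile taken. The filter left 39595 probes detected well above background on 2 or more arrays, and the brightest stood for its gene. limma 3.58.1 in R 4.3.3 fitted 7 groups (2.31 prior and 13 residual degrees of freedom) with Benjamini-Hochberg adjustment over 26650 genes, of which 277 lacked a value on some array. The script was tested on simulated data. Precision is limited by the number of arrays.

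The members and lists were chosen with earlier results of these data known. Named with values are 12 set genes, the 3 highest and 3 lowest members of a comparison, members past the threshold and, of other lists, the first member and those past the threshold. Alternatives changed background correction, scale, filter, probe choice, slide, replicate number, array weights and arrays.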

Additional observations from a re-analysis of the deposited data

Results flagged for a closer look

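Aurkb on YFP-positive day 3 array 4 stood far from the other arrays of its group. It read -6.57 in normalised log2 signal, where the other 3 arrays read -3.97 to -3.76, so the gap was 0.926 of the whole range. Of 38 values checked in the group of 4 arrays this was the only one so far out. The limit used lets about 1 in 20 such values through by chance, so 1 of 38 is no excess. The same array had the lowest pan-leukocyte mean, -4.29, and a mitotic mean of -0.25. It also had the lowest share of spots well above background, 81.0%, the lowest 75th percentile and the lowest array weight, 0.241. Whether any of these belong with its Aurkb value was not tested. Without that array, Aurkb passed over the mean of sorted groups against day 0 (log2 difference 4.73, adjusted p = 0.0249 by limma). The array was picked for its low Aurkb value, so this pass is no separate support. Across the fits with an array left out, 4 to 74 genes passed in that comparison. Aurkb was not well above background on either day 0 array.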

How the results depend on the processing

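Over 13 other settings the median difference of the mitotic genes stayed above 0 in each comparison with day 0, between 0.51 (YFP-negative day 14, mean of all probes) and 2.48. With each array left out it ran from 0.231 to 1.38 for YFP-negative day 14, the lowest without array 2 of that group, and from 0.942 to 2.19 for the other 5 groups. Members past the threshold against day 0 numbered 2, 1 and 2 in YFP-negative cells at days 3, 7 and 14 and 1 and 7 in YFP-positive cells at days 3 and 7 with array weights, where 0.281, 0.218 and 1.56% and 0.296 and 2.93% of all genes passed. With quantile normalization 1 (Aurkb) passed in YFP-positive cells at day 7, and leaving out an array gave 0 to 1 there. Over the mean of sorted groups 10 passed with array weights (3.16% of all genes), 1 (Aurkb) with quantile normalization, with the array median as scale and with the slide as a random block, and 0 to 1 with an array left out: Aurkb without YFP-positive day 3 array 4 or day 14 array 2, and Cdca8 without YFP-negative day 7 array 4. Of all 26650 genes, 2 to 841 passed over the mean of sorted groups across the other settings, and 4 to 74 with an array left out. In YFP-positive cells at day 7, 0 to 780 passed across the other settings and 1 to 45 with an array left out. Aurkb had no measured level at day 0, since it was not well above background there. The count of members below every sorted array at day 0 ran from 8 to 13. It reached 12 and 13 only with a day 0 array left out, where 3.99% of all genes met the order, against 1.87% with all arrays. For the fractions and the time courses 0 members passed under every setting and array left out, but 12 to 23 of 37 members kept their sign throughout. Counts of all genes past the threshold moved widely, for the mean of days from 2 to 1218. Same-numbered samples of different groups had deviation correlations of -0.24 to 0.39, with 8 of 43 over 0.1. For differently numbered samples they were -0.28 to 0.31, with 26 of 127 over 0.1. These pairs pool all groups and days, so they cannot tell whether the 2 fractions of a day were paired by number. With a replicate block 0 members passed in each comparison, and the median over the sorted mean was 1.73. A block of scan date was not run, since all arrays were scanned on 1 day. Matching members by accession added no probe.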
